A study of Mus musculus with 25 samples.

Results

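The genes described here are 35 genes of fatty acid oxidation and of the response to PPARA, among 35723 genes with at least 1 count in the deposited table. They were chosen by symbol from what the genes do, with earlier results of these data known. They comprise the nuclear receptor Ppara and its partner regulator Creb3l3, 3 genes of fatty acid uptake, activation and storage, 3 of the carnitine shuttle, 10 of mitochondrial beta-oxidation, 3 of electron transfer, 7 of peroxisomal beta-oxidation, 2 of omega-oxidation, 2 thioesterases and 3 further PPARA targets. All 35 passed the filter on low counts. Messenger RNA of mouse jejunum, the middle part of the small intestine, was measured in 25 libraries. Control pups (Control1 to Control5) suckled normally and were taken at postnatal day 21. Early-weaned pups (EW, Weaned1 to Weaned5) were separated from milk at day 15, after assignment to groups at day 14. The other groups were weaned early in the same way and received human milk oligosaccharides, namely 2'-FL and LNnT together (EW+HMOs, HMOs1 to HMOs5), 2'-FL alone (EW+2'-FL, FL1 to FL5) or LNnT alone (EW+LNnT, LNnT1 to LNnT5). 2'-FL is a fucosylated trisaccharide, and LNnT is a neutral tetrasaccharide without fucose. The labels state neither the doses nor the age at which the early-weaned pups were sampled, and every early-weaned group differed from the controls in diet as well as in treatment. The labels give no strain, sex, litter or genetic change for any group.

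Long-chain fatty acids are activated to acyl-CoA, passed through the mitochondrial inner membrane as carnitine esters, and shortened in repeated rounds of dehydrogenation, hydration, dehydrogenation and thiolysis. The dehydrogenases hand their electrons to the respiratory chain through the electron transfer flavoprotein. Peroxisomes shorten very long and branched chains, and cytochrome P450 enzymes of the Cyp4a family oxidise the far end of the chain. PPARA is a nuclear receptor that binds fatty acids and pairs with RXR on direct repeats of the hexamer AGGTCA, and many genes of these steps are known PPARA targets. Suckling mice live on fat-rich milk, and the jejunal enterocyte takes up most of that fat.

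The promoters of 4 genes whose transcripts were lower in EW than in control libraries are shown. These genes cover the carnitine shuttle, acyl-CoA dehydrogenation and thiolysis in the mitochondrial route, and 1 window is partly shared by a divergent gene pair. Windows reach from 250 bases before the annotated start to 50 bases after it and come from RefSeq (GRCm38.p6, 5′ to 3′ on the gene's strand). Capitals mark the hexamer AGGTCA or its reverse complement TGACCT. The windows are Slc25a20 at chr9:108661886-108662185 on the plus strand, Acadm at chr3:153944594-153944893 on the minus strand, Acads at chr5:115119297-115119596 on the minus strand and Hadhb at chr5:30155003-30155302 on the plus strand.
Slc25a20: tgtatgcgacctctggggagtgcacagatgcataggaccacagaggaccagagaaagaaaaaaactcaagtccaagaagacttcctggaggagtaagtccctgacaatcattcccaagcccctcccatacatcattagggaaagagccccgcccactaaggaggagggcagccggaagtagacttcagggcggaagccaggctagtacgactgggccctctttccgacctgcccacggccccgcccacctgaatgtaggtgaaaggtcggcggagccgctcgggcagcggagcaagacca
Acadm: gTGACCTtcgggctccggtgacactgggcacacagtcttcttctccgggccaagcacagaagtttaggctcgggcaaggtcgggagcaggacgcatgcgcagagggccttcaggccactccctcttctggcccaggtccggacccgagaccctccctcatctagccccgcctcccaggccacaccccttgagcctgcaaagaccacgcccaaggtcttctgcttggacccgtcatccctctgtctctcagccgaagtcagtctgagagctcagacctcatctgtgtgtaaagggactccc
Acads: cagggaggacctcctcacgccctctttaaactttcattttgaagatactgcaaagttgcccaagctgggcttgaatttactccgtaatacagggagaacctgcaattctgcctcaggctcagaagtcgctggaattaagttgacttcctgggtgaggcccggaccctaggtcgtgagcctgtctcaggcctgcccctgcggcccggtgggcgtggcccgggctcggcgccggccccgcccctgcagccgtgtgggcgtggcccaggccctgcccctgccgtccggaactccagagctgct
Hadhb: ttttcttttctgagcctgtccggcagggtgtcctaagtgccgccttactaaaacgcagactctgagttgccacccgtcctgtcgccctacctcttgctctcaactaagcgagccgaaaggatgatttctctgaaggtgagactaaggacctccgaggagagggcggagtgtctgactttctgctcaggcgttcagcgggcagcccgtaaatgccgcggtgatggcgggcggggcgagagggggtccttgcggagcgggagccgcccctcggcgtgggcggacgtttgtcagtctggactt
Of these 4 windows only that of Acadm held a match, which began 249 bases before the start. The promoters searched matched 28 of the 35 genes by symbol, with 30 windows. Acaa2, Angptl4, Cyp4a10, Cyp4a31, Decr1, Hsd17b4 and Vnn1 had no entry among them. The chromosome that holds Acaa2 and Hsd17b4 was left out of the search, so the lack of an entry says nothing about these genes. The full repeat, AGGTCA then 1 base of any kind then AGGTCA again, was searched on both strands. It was found in 13 of the 32851 mouse promoters searched, which were of the same length (0.0396%). The looser repeat of AGGNCA with the same spacing, where N is any base and which includes the full repeat, was found in 125 (0.381%). Neither repeat was present in the 30 windows. The single hexamer AGGTCA, which is part of both repeats, was found in 5340 promoters (16.3%) and in 6 of the 30 windows, those of Acadm, Acadvl, Cpt1a, Creb3l3, Plin2 and Slc27a2. A match is a description of letters, and sites outside these windows were not searched. The Hadha and Hadhb windows, on opposite strands, shared 228 bases, and in GRCm39 the 2 genes lie 85 bases apart.

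Library totals ranged from 58.7 to 89.6 M counts, and values are given as CPM, counts scaled to library size after TMM normalisation. Enterocyte transcripts were abundant in every library (Vil1 865 to 3500 CPM and Sis 1470 to 8800 CPM), and the ileal marker Fabp6 stayed at or below 0.115 CPM. Weaned1, FL1, LNnT1 and LNnT2 stood apart from the other 21 libraries on the first principal component, and results that rest on them are given with and without them. Pancreatic acinar transcripts were present in Control2, Control3, Weaned1, FL5, LNnT1 and LNnT2. Y-linked transcripts were present in 1 control library, 4 EW, 3 EW+HMOs, 4 EW+2'-FL and 2 EW+LNnT libraries, so sex and early weaning are partly confounded. The control library, Control2, held both Y-linked transcripts (78.1 CPM) and the X-inactivation transcript Xist (214 CPM), while the other libraries with Y-linked transcripts had at least 156 CPM of these and at most 1.22 CPM of Xist. Control2 therefore went against a single sex, and whether it holds RNA of more than 1 pup was not tested.

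Levels between genes were compared on the FPKM scale, which divides by gene length. In control libraries the mitochondrial thiolase Acaa2 had the highest level, 388 ± 47.4 FPKM (SD, n = 5). Creb3l3, a transcription factor of hepatocytes and enterocytes that acts with PPARA, followed at 200 ± 14.5 FPKM, and the short-chain hydroxyacyl-CoA dehydrogenase Hadh at 148 ± 8.69 FPKM. Etfb (119 ± 23.4), Etfa (116 ± 8.31), Acadvl (115 ± 8.75), Acadl (115 ± 4.35) and Hsd17b4 (110 ± 6.38 FPKM) came next and did not differ from their neighbours beyond their spread. At the low end were Acot1 at 8.31 ± 1.35, Acot2 at 5.67 ± 0.154, Ppara at 5.27 ± 2.04 and Cyp4a10 at 4.45 ± 0.524 FPKM. Cyp4a31 was close to absent at 0.0686 ± 0.0675 FPKM.

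Early weaning against normal suckling was the first comparison. In EW libraries 6 of the 35 genes were lower than in controls and 0 were higher (edgeR quasi-likelihood test, Benjamini-Hochberg adjusted p under 0.05 over 22131 genes). Over all genes tested 0.511% were called lower and 0.443% higher. The 6 genes were Slc25a20 of the carnitine shuttle, the mitochondrial enzymes Acadm, Acads and Hadhb, the peroxisomal enzyme Hsd17b4 and the omega-hydroxylase Cyp4a10. The median log2 change of the 35 genes was -0.41, and the median of all genes tested was 0.02. Without adjustment for multiple tests, 21 of the 35 genes had a p under 0.05, all 21 lower, against 14% of all genes in either direction. In a tissue homogenate, fewer cells of a type and less RNA per cell cannot be told apart.

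Slc25a20, the carnitine-acylcarnitine translocase of the inner mitochondrial membrane (GRCm39 chr9:108539287-108561840), gave 79.2, 91.9, 104, 110 and 101 CPM in Control1 to Control5. It gave 82.4, 53.9, 47.3, 61.8 and 36.7 CPM in Weaned1 to Weaned5. Weaned1 lay within the control range and the other 4 EW libraries lay below it. The log2 change was -0.78 ± 0.17 (SE, edgeR adjusted p = 0.026). Cpt2, which rebuilds acyl-CoA on the matrix side, was 170 to 214 CPM in controls and 117, 81.7, 104, 78.2 and 104 CPM in Weaned1 to Weaned5. The groups did not overlap, and the change of -1.0 ± 0.27 missed the threshold (edgeR adjusted p = 0.074). Cpt1a, the outer-membrane enzyme that commits fatty acids to the shuttle, had 187 ± 21.8 CPM in controls and 177 ± 19.9 in EW (SD, n = 5 each), a log2 change of -0.08 ± 0.29 with overlapping groups (edgeR adjusted p = 0.94).

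All 10 mitochondrial beta-oxidation genes had a negative log2 change, with a median of -0.51, and 3 passed the test. Acadm, the medium-chain acyl-CoA dehydrogenase (chr3:153627994-153650269), had 207, 212, 209, 207 and 198 CPM in Control1 to Control5. Its EW values were 184, 138, 148, 118 and 142 CPM, all below the lowest control (log2 change -0.50 ± 0.12, edgeR adjusted p = 0.040). The control libraries lay close together, with an SD of 5.25 CPM against 24.1 in EW. Acads, the short-chain acyl-CoA dehydrogenase (chr5:115248358-115257405), had 102, 91, 120, 105 and 102 CPM in controls and 82.6, 63.6, 72.7, 62.8 and 69.4 CPM in EW, again without overlap (-0.56 ± 0.13, edgeR adjusted p = 0.036). Hadhb, the thiolase subunit of the trifunctional protein (chr5:30360246-30389591), had 272, 274, 252, 292 and 272 CPM in controls and 234, 161, 189, 158 and 175 CPM in EW (-0.57 ± 0.13, edgeR adjusted p = 0.030). Here too every EW library was below every control, and Weaned1 was the highest of the 5.

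Hadha, the other subunit of the trifunctional protein, is transcribed in the opposite direction from the window shown for Hadhb. It had 383 to 474 CPM in controls and 284 to 358 CPM in EW, without overlap, but its change of -0.40 ± 0.14 was not called (edgeR adjusted p = 0.19). Acadvl, the very-long-chain acyl-CoA dehydrogenase, had 321 ± 21.7 CPM in controls and 225 ± 53.6 in EW (SD, n = 5 each). Its change of -0.52 ± 0.14 was not called (edgeR adjusted p = 0.078), and Weaned1 at 318 CPM lay inside the control range while the other 4 EW libraries were at 187 to 220 CPM. The isomerase Eci1 and the dienoyl-CoA reductase Decr1, which prepare unsaturated chains, did not overlap between the groups but were not called. Among the electron transfer genes the 3 log2 changes ran from -0.66 for Etfb to -0.39 for Etfdh, the dehydrogenase that passes electrons to ubiquinone, with a median of -0.41, and none was called.

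Peroxisomal genes differed among themselves. Hsd17b4, the bifunctional enzyme that handles branched and very long chains and lies on chromosome 18, had 402, 376, 386, 407 and 380 CPM in controls and 248, 167, 226, 162 and 193 CPM in EW. The groups were far apart, and the fitted ratio of EW to controls was 0.511 (log2 change -0.97 ± 0.19, edgeR adjusted p = 0.013). The other peroxisomal genes were not called. Ehhadh, the other bifunctional enzyme and a well-known PPARA target, had 204 ± 31.2 CPM in controls and 190 ± 27.9 in EW (SD, n = 5 each; log2 change -0.10 ± 0.23, edgeR adjusted p = 0.89). Over the 7 peroxisomal genes the median log2 change was -0.10, with 4 negative. Acaa1b, Eci2 and Pex11a were positive, and each was highest in Weaned1. Acaa1b had 178 CPM there and 32.9 to 49.3 in the other EW libraries, against 51.7 to 71.7 in controls. Eci2 had 229 CPM there and 76 to 86.2 in the others, against 88.2 to 120. Pex11a had 74.8 CPM there and 37.2 to 51.2 in the others, against 42.6 to 49.6. Decr2 had 28.4 to 41 CPM in EW and 47 to 57.2 in controls, without overlap.

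The omega-hydroxylase Cyp4a10, which in mouse liver is among the most responsive PPARA targets (chr4:115375461-115390846), had the lowest level of the 6 called genes. It had 11, 9.15, 9.78, 10.6 and 8.39 CPM in controls and 4.57, 1.95, 1, 0.832 and 0.967 CPM in EW (log2 change -2.40 ± 0.59, edgeR adjusted p = 0.047). The highest EW library, Weaned1, was below the lowest control. Its neighbour Cyp4a31 had 33, 16 and 25 counts in Control2, Control3 and Control5, and 0 in the other 2 controls and in all EW and EW+HMOs libraries. The control mean of Cyp4a31 was 26 times a floor of 3 counts over the EW group. Its change was not called (edgeR adjusted p = 0.15), and the controls themselves were split between 0 and low counts. How reads common to Cyp4a10 and Cyp4a31, to Acot1 and Acot2, or to Acaa1a and Acaa1b were assigned is not stated in the labels, so values within these pairs are uncertain.

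The receptor and the further PPARA targets were not called. Ppara had 22.3, 31.1, 13.1, 26.9 and 12.3 CPM in controls and 31.7, 42, 35, 30.5 and 30.6 CPM in EW. The groups overlapped in Control2 and the change was not called (0.68 ± 0.48, edgeR adjusted p = 0.56). Pdk4, the kinase that turns off pyruvate dehydrogenase, had a log2 change of 0.44 ± 0.83, and Angptl4, the secreted inhibitor of lipoprotein lipase, one of 0.20 ± 0.53 (edgeR adjusted p = 0.87 and 0.91). The pantetheinase Vnn1 had 49.1 ± 12.9 CPM in controls and 22.2 ± 12.2 in EW (SD, n = 5 each; -1.14 ± 0.34, edgeR adjusted p = 0.11). Acot1, a thioesterase that releases free fatty acids from acyl-CoA, had 29.6 to 41.1 CPM in controls. In EW it had 38.5 CPM in Weaned1 and 4.91 to 8.32 CPM in the other 4 libraries, and its change was not called (-1.38 ± 0.49, edgeR adjusted p = 0.19).

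**Figure D1:**
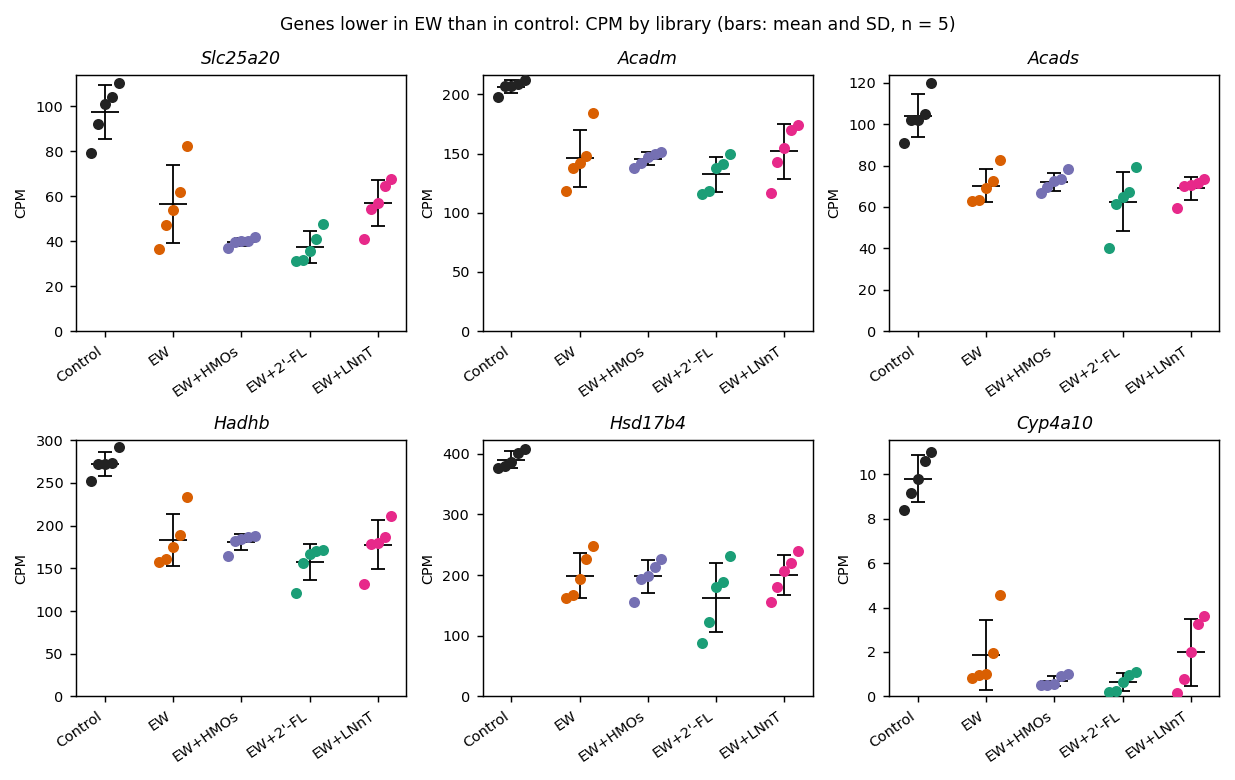
CPM (linear axis from 0) of the 6 genes called between EW and Control, 1 point per library in each of the 5 groups, with bars for the mean ± SD (n = 5). For Acadm, Acads, Hadhb, Hsd17b4 and Cyp4a10 all EW points lie below all control points, and for Slc25a20 Weaned1 (82.4 CPM) lies inside the control range.

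In all, 11 of the 35 genes had EW libraries that lay wholly below the control libraries, against 4.97% of all genes tested, and 0 lay wholly above (background 3.52%). These counts moved with single libraries. Leaving out 1 library changed the count of called genes from 6 to 14 without Weaned1, 10 without FL1, 3 without Control2, 2 without Control1, 1 without Control3, Control4, Control5, Weaned3 or Weaned5, and 0 without Weaned2 or Weaned4. It was 4 without any of the HMOs libraries and 5 to 7 without any other. The log2 changes moved less. Over the same 25 repeats they were -0.96 to -0.66 for Slc25a20, -0.60 to -0.43 for Acadm, -0.63 to -0.51 for Acads, -0.67 to -0.52 for Hadhb, -1.06 to -0.90 for Hsd17b4 and -3.04 to -2.21 for Cyp4a10. Hsd17b4 lost its call without Weaned2 or Weaned4 (edgeR adjusted p = 0.05 and 0.058), and Cyp4a10 lost it without any control, Weaned2 to Weaned5, any HMOs library, FL3, FL5 or LNnT5 (edgeR adjusted p = 0.05 to 0.14). Slc25a20 lost it without Control3 to Control5 or Weaned2 to Weaned5, and Acads and Hadhb also without Control1. Hadhb lost it also without Control2, and Acadm without any control, Weaned2 to Weaned5 or any HMOs library. Cpt2 was called without Weaned1, FL1, LNnT1 or LNnT2 and Acadvl without Weaned1 or FL1.

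Markers of other cell types were summed in the same groups. The 8 Paneth cell markers summed to 509 to 1740 CPM in controls and 1810 to 2410 in EW, without overlap. All 8 had a positive log2 change (median 0.76), and 3 were called higher. All 6 erythroid markers had a positive change (median 1.29, 0 called), with sums of 448 to 921 CPM in controls and 638 to 3550 in EW. Of 7 goblet cell markers 6 had a negative change (median -0.57, 0 called), with sums of 3650 to 5750 CPM in controls and 2170 to 5860 in EW. The summed level of 14 enterocyte markers was 44700 to 61700 CPM in controls and 46600 to 105000 in EW, with Weaned1 highest. Of these 14 markers 8 had a positive and 6 a negative change (median 0.09, 1 called lower). The summed level of 7 hepatocyte markers, which include Apoc3 of the enterocyte, was 506 to 921 CPM in controls and 277 to 828 in EW, while Alb reached at most 2.21 CPM in any library. The 11 pancreatic acinar markers summed to 839 and 8370 CPM in Control2 and Control3 and 2750 in Weaned1, against at most 2.02 in the other control and EW libraries. The 8 adipocyte markers summed to 107 to 165 CPM in controls and 145 to 271 in EW. Of these markers 7 were tested, and all 7 had a positive change (median 2.07, 0 called, 2 at an unadjusted p under 0.05). Over all libraries the defining markers Adipoq and Lep had medians of 0.259 and 0 CPM. The part of these cell types in the result was not tested. Without the 6 libraries that held pancreatic transcripts 10 of the genes were called lower, against 1% of all genes. When the share of Y-linked transcripts was added as a covariate, only Hsd17b4 kept its call, while the median log2 change of the 35 genes was -0.45, against -0.41 without the covariate, and 25 of the 35 were negative. Weaned3, the 1 EW library without Y-linked transcripts, was below all 4 such controls in 25 of the 35 genes, the 6 called genes among them, and above all 4 in 5 genes, against 29.7% and 29.5% of all genes tested.

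**Figure D2:**
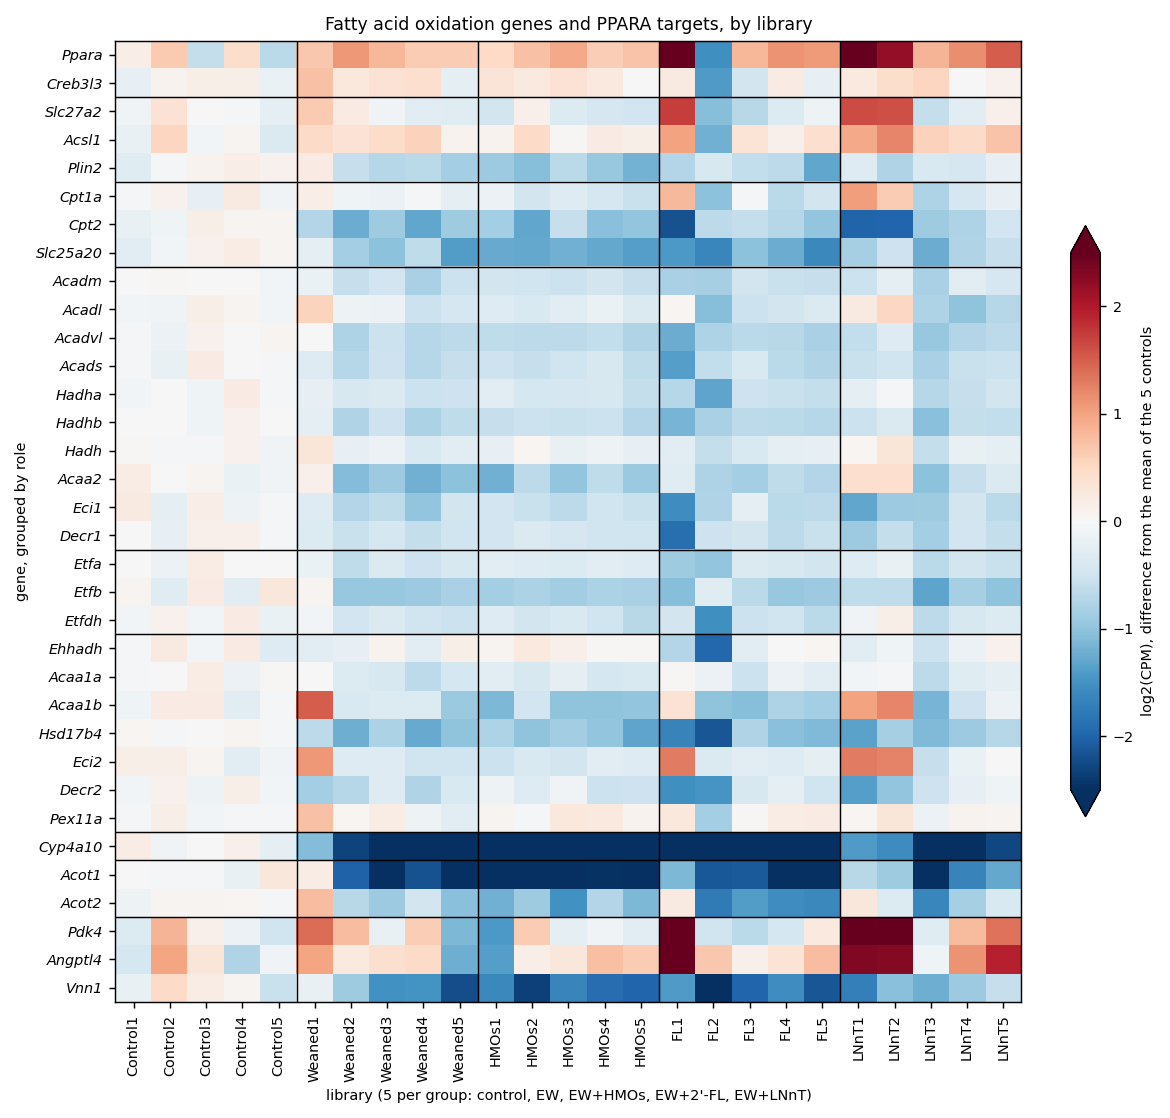
Difference in log2 CPM from the mean of the 5 control libraries for 34 genes (rows, grouped by role; Cyp4a31 is left out because most of its libraries are at 0) in the 25 libraries (columns, by group). Mitochondrial and electron transfer genes lie mostly below the control mean across the early-weaned groups, and Weaned1, FL1, LNnT1 and LNnT2 differ from their groups, for example in Pdk4 (332, 1970, 2050 and 1260 CPM).

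The oligosaccharide groups were then set against EW, which asks whether the supplements moved these genes in early-weaned pups. Against EW, 0 of the 35 genes were called in each of the 3 oligosaccharide groups. Over all genes edgeR called 0, 0 and 38 (0%, 0% and 0.172%), with 921, 1199 and 2521 genes at an unadjusted p under 0.05, and DESeq2 called 56, 49 and 408. DESeq2 also called 0 of the 35 genes in each. At an unadjusted p under 0.05 there were 6 of the 35 genes in EW+HMOs and 6 in EW+2'-FL, all lower, and 5 in EW+LNnT, all higher, against 4.16%, 5.42% and 11.4% of all genes. The median log2 changes of the 35 genes were -0.09, -0.19 and 0.02, with 26, 26 and 13 genes negative. Without Weaned1 the medians were 0.02, -0.08 and 0.19, with 13, 22 and 5 negative. Without Weaned1, FL1, LNnT1 and LNnT2 they were 0.03, -0.09 and 0.02, so the lean in EW+HMOs rested on Weaned1. No gene separated any of these groups from EW without overlap (background 2.37%, 0.831% and 2.72%).

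The smallest p in EW+HMOs and in EW+2'-FL was that of the carnitine-acylcarnitine translocase. Slc25a20 had 40.1, 39.8, 42, 39.9 and 37.1 CPM in HMOs1 to HMOs5 and 35.8, 31, 47.6, 40.8 and 31.5 CPM in FL1 to FL5, and the lowest EW library had 36.7. The change against EW was -0.50 ± 0.17 in EW+HMOs (unadjusted p = 0.0066, edgeR adjusted p = 0.93) and -0.60 ± 0.17 in EW+2'-FL (unadjusted p = 0.0018, edgeR adjusted p = 0.52). The HMOs libraries lay close together (SD 1.75 CPM, against 17.2 in EW). Acot1 had 4.85 ± 0.827 CPM in EW+HMOs and 13 ± 14.3 in EW (SD, n = 5 each), a change of -1.42 ± 0.49 that was not called (edgeR adjusted p = 0.98). Without Weaned1, which held 38.5 CPM, that change was -0.46. Creb3l3 had 538 ± 206 CPM in EW+2'-FL and 796 ± 180 in EW (-0.56 ± 0.21, edgeR adjusted p = 0.76), with FL2 lowest at 236 CPM.

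In EW+LNnT the smallest p values among genes with at least 5 CPM belonged to Angptl4 and Acaa2. Angptl4 had 297, 292, 55.1, 130 and 230 CPM in LNnT1 to LNnT5 and 118, 70.5, 78.7, 82.4 and 25.4 CPM in EW, so that LNnT3 lay inside the EW range and the other 4 above it (1.42 ± 0.54, edgeR adjusted p = 0.28). Acaa2 had 814, 822, 302, 408 and 478 CPM in LNnT1 to LNnT5 and 671, 287, 325, 266 and 300 CPM in EW (0.61 ± 0.25, edgeR adjusted p = 0.32). Its high values were those of LNnT1, LNnT2 and Weaned1, all libraries that stood apart. Without the 4 libraries that stood apart the changes were 0.43 for Acaa2 and 1.10 for Angptl4, and without FL1, LNnT1 and LNnT2 alone they were 0.09 and 0.87. The log2 difference of Ppara from EW was -0.07 ± 0.48 with both oligosaccharides, 0.74 ± 0.48 with 2'-FL and 1.08 ± 0.48 with LNnT, and that of Cpt1a was -0.31 ± 0.29, -0.06 ± 0.29 and 0.29 ± 0.29, none of them called. The sign of the Ppara change in EW+2'-FL rested on FL1 (158 CPM), and without it the change was -0.10. Without the 4 libraries that stood apart the Ppara change in EW+LNnT was 0.39. The sign of the Cpt1a change in EW+LNnT rested on LNnT1 (385 CPM), and without it the change was -0.03.

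Each oligosaccharide group was also set against the suckling controls. These comparisons and that of EW use the same 5 control libraries, so their results are not independent and are given side by side. In EW+HMOs 11 of the 35 genes were lower and 0 higher, against 0.935% and 0.917% of all genes. In EW+2'-FL 16 were lower and 0 higher, against 1.48% and 1.07% of all genes. In EW+LNnT 13 were lower and 2 higher, against 3.93% and 6.68% of all genes. The median log2 changes of the 35 genes were -0.47, -0.70 and -0.42, with medians of -0.03, 0.05 and 0.00 over all genes. Groups lay wholly below the controls in 22, 20 and 14 of the 35 genes, against 8.24%, 3.66% and 5.97% of all genes. EW+LNnT lay wholly above them in 1 gene, Ppara, against 5.37% of all genes.

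In the carnitine shuttle, Slc25a20 was lower in EW+HMOs (-1.29), EW+2'-FL (-1.38) and EW+LNnT (-0.77 on the log2 scale, edgeR adjusted p under the threshold in each). In EW+LNnT its 5 libraries had 54.3, 67.7, 41.1, 57.1 and 64.5 CPM, all below the lowest control at 79.2. Cpt2 was called in EW+LNnT (-1.10 ± 0.27, edgeR adjusted p = 0.013), where LNnT1 and LNnT2 had 48.4 and 48.8 CPM and LNnT3 to LNnT5 104, 113 and 138. It was not called in EW+HMOs (-0.94 ± 0.27, edgeR adjusted p = 0.065) or EW+2'-FL (-0.93 ± 0.27, edgeR adjusted p = 0.059), although no library reached the control range in either group. Plin2, the coat protein of lipid droplets, had 63.8 to 90.2 CPM in EW+HMOs and 58.7 to 110 CPM in EW+2'-FL, against 117 to 163 CPM in controls. Its changes were -0.96 ± 0.18 and -0.72 ± 0.18 (edgeR adjusted p = 0.0048 and 0.030). It was not called in EW+LNnT (-0.42 ± 0.18, edgeR adjusted p = 0.13).

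Among the 10 mitochondrial beta-oxidation genes, EW+HMOs had 4 lower than controls, EW+2'-FL 7 and EW+LNnT 6, and all 10 had a negative change in each group. Acadvl fell in all 3, from 321 ± 21.7 CPM in controls to 204 ± 7.29, 181 ± 25.9 and 206 ± 32.2 CPM (SD, n = 5 each; edgeR adjusted p = 0.013, 0.0021 and 0.0081). Acadm ran from 138 to 151 CPM in EW+HMOs, from 116 to 150 in EW+2'-FL and from 117 to 174 in EW+LNnT, below the 198 CPM of the lowest control in every library. Hadha was called in EW+2'-FL (-0.72 ± 0.14, edgeR adjusted p = 0.0066) and not in EW+HMOs (-0.42 ± 0.14) or EW+LNnT (-0.39 ± 0.14). FL2 had 165 CPM of Hadha and the other FL libraries 249 to 285. Eci1 and Decr1 were lower in EW+2'-FL (-0.72 and -0.74) and EW+LNnT (-0.83 and -0.68). Of the electron transfer genes, Etfb was lower in all 3 groups (-0.84, -0.77 and -0.88), Etfa in EW+2'-FL and EW+LNnT (-0.60 and -0.43) and Etfdh in EW+2'-FL (-0.70).

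Hsd17b4 ran from 156 to 227 CPM in EW+HMOs, from 88.9 to 232 in EW+2'-FL and from 155 to 239 in EW+LNnT, against 376 to 407 CPM in controls. Its log2 changes were -0.98, -1.26 and -0.96, and it was the only one of the 7 peroxisomal genes called in these groups. The highest Cyp4a10 values of EW+HMOs, EW+2'-FL and EW+LNnT were 0.998, 1.12 and 3.64 CPM, against a lowest control value of 8.39 (log2 changes -3.80, -3.94 and -2.31). Cyp4a31 was at 0 in EW+HMOs, and the control mean was 25.2 times the same floor. It was at 4 and 7 counts in FL1 and FL5 and 10, 10 and 6 counts in LNnT1 to LNnT3, and was not called in any of these groups. Acot1 was lower in EW+HMOs (-2.80 ± 0.51, edgeR adjusted p = 0.0039) and EW+2'-FL (-2.08 ± 0.50, edgeR adjusted p = 0.025). Vnn1 was lower in all 3 groups, with 13 ± 2.5, 12.1 ± 5.47 and 23.1 ± 6.41 CPM against 49.1 ± 12.9 in controls (SD, n = 5 each; edgeR adjusted p = 0.0033, 0.0021 and 0.040).

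Calls that leaving out 1 library ended were spread over the groups. In EW+HMOs they were those of Acadm (any control or HMOs library, -0.52 to -0.49), Acads (any control but Control2, or any HMOs library, -0.56 to -0.47) and Etfb (Control3, Control5, HMOs1, HMOs2 or HMOs3, -0.85 to -0.77). In EW+2'-FL leaving out Control3 ended the calls of Plin2, Eci1, Decr1, Etfa, Etfb, Etfdh and Acot1. Some of these also ended without Control1 (Eci1, Etfb), Control4 (Plin2, Decr1, Etfdh), Control5 (Plin2, Eci1, Etfb, Acot1), FL1 (Plin2, Eci1, Etfb), FL4 (Etfb, Acot1) or FL5 (Plin2, Etfb, Etfdh, Acot1). In EW+LNnT, Acadm lost its call without Control3 or LNnT1 and Decr1 without Control3. Vnn1 lost it without any control or LNnT1 to LNnT3 (-1.20 to -0.95), and Etfa without any control but Control2 or without LNnT1, LNnT3 or LNnT5 (-0.46 to -0.37).

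The 2 genes that were higher in EW+LNnT were Ppara and Acsl1, the acyl-CoA synthetase that activates long-chain fatty acids. Ppara had 133, 90.7, 35.8, 44.3 and 56.3 CPM in LNnT1 to LNnT5 and 12.3 to 31.1 in controls (1.77 ± 0.49, edgeR adjusted p = 0.026). Acsl1 had 222, 269, 172, 161 and 189 CPM against 89.7 to 168 CPM (0.78 ± 0.25, edgeR adjusted p = 0.045). The highest values of both genes were in LNnT1 and LNnT2. Without the 4 libraries that stood apart the changes were 1.10 for Ppara (edgeR adjusted p = 0.075) and 0.55 for Acsl1 (edgeR adjusted p = 0.15). The call of Ppara was also lost without LNnT1 (1.43), LNnT2 (1.67), Control1, Control3 or Control5 (1.43 to 1.78 in all). That of Acsl1 was lost without LNnT1, LNnT2, any control but Control2, Weaned2 to Weaned4, any HMOs library or FL3 to FL5 (0.65 to 0.79). Pdk4 (2.56 ± 0.88) and Angptl4 (1.62 ± 0.55) were not called in EW+LNnT (edgeR adjusted p = 0.062 and 0.056), and without the 4 libraries their changes were 0.67 and 1.08.

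**Figure D3:**
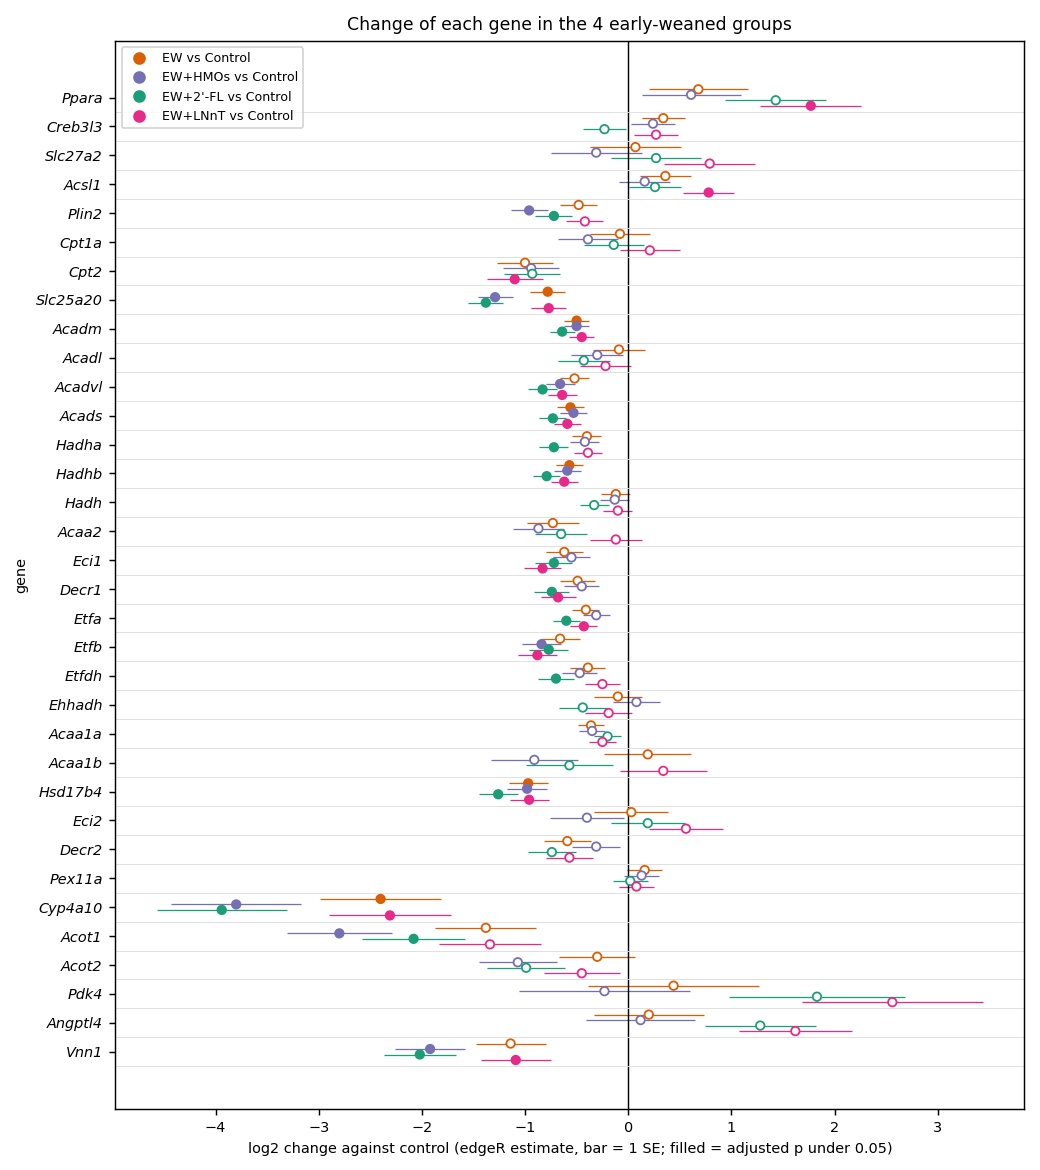
Log2 change against Control for 34 genes (rows, by role; Cyp4a31 left out) in EW, EW+HMOs, EW+2'-FL and EW+LNnT, which share the 5 control libraries; bars are 1 SE and filled points have an edgeR adjusted p under 0.05. All filled points lie to the left of 0 except Ppara (1.77) and Acsl1 (0.78) in EW+LNnT, and Cyp4a10 lies farthest left (-3.94 in EW+2'-FL).

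The single oligosaccharides were compared with each other, as structurally different supplements of which only 2'-FL carries fucose. Doses are not stated in the labels, so it is not known whether they matched. This was 1 pair of groups over 35 genes, and 0 of them were called in EW+2'-FL against EW+LNnT. Over all genes edgeR also called 0, with 1884 at an unadjusted p under 0.05, and DESeq2 called 72, none of them among the 35. Without adjustment 9 of the 35 genes had a p under 0.05, all 9 lower in EW+2'-FL, against 8.51% of all genes. The smallest p was again that of Slc25a20, which averaged 37.3 ± 6.97 CPM with EW+2'-FL against 56.9 ± 10.4 CPM with EW+LNnT (SD, n = 5 each). Its log2 difference was -0.61 with a 95% interval of -0.96 to -0.26 (edgeR adjusted p = 0.35), and the groups overlapped in LNnT3 (41.1 CPM). Cyp4a10 differed by -1.63 ± 0.58 and Vnn1 by -0.94 ± 0.34, neither called (edgeR adjusted p = 0.46 and 0.47). The log2 differences of the 10 mitochondrial beta-oxidation genes ran from -0.54 to 0.11. The lowest bound of their 95% intervals was -1.05 (Acaa2) and the highest 0.47 (Eci1). These bounds come from different genes and are not a limit for each gene. A lack of calls does not show that there was no difference within them.

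Weaned1, FL1, LNnT1 and LNnT2 together lay above the other 16 early-weaned libraries in 10 of the 35 genes, against 4.5% of all genes, and below them in 0 (4.02%). The 10 genes were Slc27a2, Cpt1a, Acadl, Acaa2, Acaa1a, Acaa1b, Eci2, Acot1, Acot2 and Pdk4. FL1, LNnT1 and LNnT2 lay above the other 17 in 7 genes, which added Ppara, Acsl1 and Angptl4 to Slc27a2, Cpt1a, Eci2 and Pdk4 (8.63% of all genes), and below them in 1, Cpt2 (9.3%). These libraries were chosen for standing apart over all genes, so the counts describe them and carry no test. Pdk4 had 332 CPM in Weaned1, 1970 in FL1, 2050 in LNnT1 and 1260 in LNnT2, against 46.9 to 324 CPM in the other early-weaned libraries and 90.2 to 230 in controls. Slc27a2, a very-long-chain fatty acid transporter and synthetase, had 345, 718, 673 and 664 CPM, against 104 to 251 in the other early-weaned libraries. Cpt2 had 42.8, 48.4 and 48.8 CPM in FL1, LNnT1 and LNnT2, against 78.2 to 138 in the other 17.

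Other transcripts were summed in the same libraries. The summed level of 10 genes known to be induced by glucocorticoids was 2360, 3890, 4570 and 4570 CPM in Weaned1, FL1, LNnT1 and LNnT2 and at most 2230 CPM in any other library. That of the circadian clock genes was 743, 1790, 2380 and 1870 CPM and at most 903 elsewhere, so Weaned1 lay within the range of the others. The enterocyte markers summed to 105000, 76900, 81900 and 85300 CPM, against at most 65900 elsewhere, and the 8 T cell markers to 13.3, 6.1, 6.26 and 5.91 CPM, against at least 24.1. Abundant members weigh most in the enterocyte sum, with Apoa4 at 7820 to 59600 CPM over all libraries. Fabp1 of the same list had 1580, 342, 491 and 727 CPM in these libraries, and its value in FL1 was the lowest of all libraries. Mitochondrially encoded transcripts took 9.27%, 8.98% and 9.57% of the counts in FL1, LNnT1 and LNnT2, 7.82% in Weaned1 and at most 7.93% elsewhere. The part of any of these in the values of the 35 genes was not tested. FL2 was the lowest of the 25 libraries in 16 of the 35 genes, and was also the lowest in 16.3% and the highest in 16.6% of all genes compared. It held 6.84 CPM of Ppara, the lowest of all libraries.

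**Figure D4:**
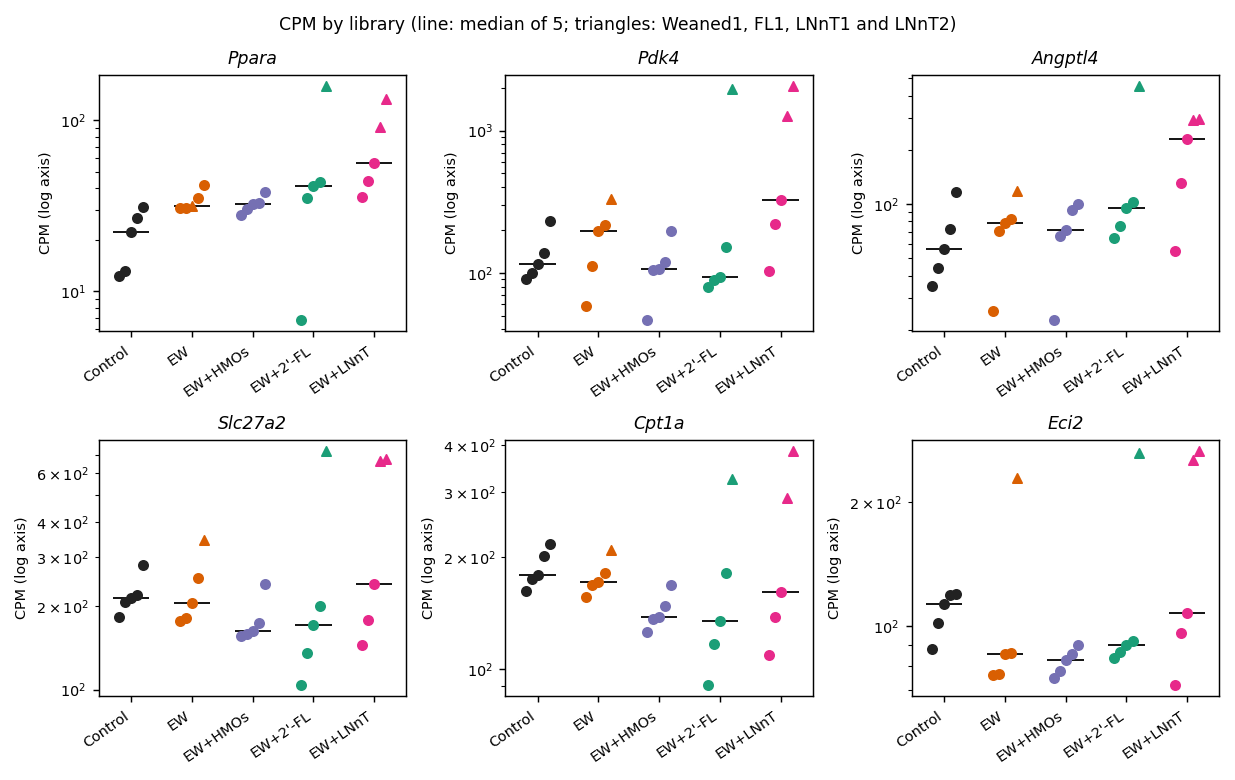
CPM (log axis) of Ppara, Pdk4, Angptl4, Slc27a2, Cpt1a and Eci2 in each library by group, with triangles for Weaned1, FL1, LNnT1 and LNnT2, circles for the other libraries and a line at each group's median. In FL1, LNnT1 and LNnT2 every gene shown lies above the other 17 early-weaned libraries, with Pdk4 at 1970, 2050 and 1260 CPM.

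Without these 4 libraries the comparison of EW with controls called 20 of the 35 genes lower and 0 higher, against 9.89% of all genes, and the median log2 change was -0.53. The counts were 21 lower in EW+HMOs (11.4% of all genes), 21 lower in EW+2'-FL (4.85%), and, with EW+LNnT, 18 lower (10.8%), with 0 higher in each. Against EW 0 of the 35 genes were called in any oligosaccharide group. Leaving these libraries out was decided after their values were known.

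Other genes of the pathway were taken from lists of known function, which were chosen with earlier results of these data known. Between EW and controls their calls are to be read against the 0.511% lower and 0.443% higher of all genes tested. Of 14 PPAR and RXR receptors and cofactors tested, 1 was higher, the coactivator Ncoa1 (45.2 ± 7.64 against 27 ± 5.47 CPM; 0.74 ± 0.18, edgeR adjusted p = 0.042). Of 21 other genes of mitochondrial oxidation, 1 was higher, the acyl-CoA synthetase Acsf2. It had 43.5, 59.1, 116, 87.3 and 108 CPM in Weaned1 to Weaned5 and 24.3 to 36.3 in controls (1.34 ± 0.29, edgeR adjusted p = 0.025). Of 24 other peroxisomal genes 1 was lower, the thioesterase Acot8 (27.3 ± 2.35 against 39.2 ± 3.47 CPM, edgeR adjusted p = 0.018). Of 13 other omega-oxidation genes 1 was lower, Cyp4f16 (78.1 ± 10.1 against 150 ± 27 CPM, edgeR adjusted p = 0.028). Of 36 further PPARA targets 2 were lower. They were the intestinal fatty acid binding protein Fabp2 (1780 ± 744 against 3530 ± 472 CPM, edgeR adjusted p = 0.044) and the mitochondrial carrier Ucp2 (658 ± 160 against 1160 ± 135 CPM, edgeR adjusted p = 0.048). All SDs in these sentences are over n = 5.

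None of 9 ketone body genes was called between EW and controls. Against EW, 0 genes of the 6 pathway lists were called in any oligosaccharide group. Against the shared controls the 6 lists gave further calls. Ncoa1 was higher and Acot8, Cyp4f16 and Fabp2 were lower in EW+HMOs, EW+2'-FL and EW+LNnT. Ech1, a dienoyl-CoA isomerase, was lower in all 3 (-0.65, -0.78 and -0.58; edgeR adjusted p = 0.018, 0.0045 and 0.016), and in EW it was 134 to 157 CPM in 4 libraries and 246 in Weaned1, against 213 to 259 in controls. Crot, which makes carnitine esters in peroxisomes, was lower in EW+HMOs and EW+2'-FL (-0.79 and -0.87), as was the malic enzyme Me1 (-2.28 and -1.98). The coactivator Ppargc1a was higher in EW+2'-FL (0.83 ± 0.21, edgeR adjusted p = 0.032) and EW+LNnT (0.82 ± 0.21, edgeR adjusted p = 0.017). FL2 had 46 CPM of Ppargc1a, inside the control range of 45.5 to 67.9, and the other FL libraries 91.3 to 122. In EW+LNnT 5 of the 14 receptors and cofactors were higher, against 6.68% of all genes. They were the coactivators Ncoa1, Ncoa2, Ppargc1a and Ppargc1b and the corepressor Ncor1, which had 222 to 261 CPM against 121 to 209 in controls. Txnip was higher in EW+LNnT (1.25 ± 0.35, edgeR adjusted p = 0.026). It had 1640 and 1580 CPM in LNnT1 and LNnT2 and 373 to 654 CPM in the other libraries of that group. Controls had 362 to 428 CPM, so LNnT3 (373 CPM) lay inside their range.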

How the data were processed

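Polyadenylated RNA (RIN above 7) was made into strand-specific dUTP libraries and sequenced as paired reads, per the labels' protocols. The submitters' processing notes name cutadapt 1.9, HISAT2 2.2.1, StringTie 2.1.6, DESeq2, edgeR and GRCm39, without roles. The deposited counts are whole numbers per Ensembl gene, and the authors' FPKM values, scaled to length and depth, served for levels between genes and a repeated test.

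Of 57132 genes listed, 22131 passed filterByExpr by group. The 25 libraries were normalised by TMM and fitted together in edgeR 4.0.16 (R 4.3.3) with a robust quasi-likelihood model, 1 mean per group and no covariate. Genes were called at a Benjamini-Hochberg adjusted p under 0.05 over all genes tested, in 8 comparisons. The test was checked on simulated counts. CPM values are means ± SD and log2 changes are ± SE. Alternatives used limma 3.58.1 on log2(FPKM + 0.1) and log2(FPKM + 1), DESeq2 1.42.0, other scaling and filters, and left-out libraries. Promoters were read from RefSeq tables (GRCm38.p6), and gene positions are those of the deposited table (GRCm39).

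The 35 genes, the lists and the tests were chosen with earlier results of these data known. Named were all called genes, the 2 uncalled genes with at least 5 CPM and the smallest p in EW against controls and in each supplement against EW, Ppara and Cpt1a, and up to 4 called genes per pathway list and comparison. Ncor1 was named beyond these in EW+LNnT against controls. Hadha, Ehhadh, Pdk4, Plin2, Vnn1 and the other genes given with values were added after their values were seen. Whether each library is a separate animal is not stated in the labels, so the p-values reflect the spread between these samples, which may be technical.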

Additional observations from a re-analysis of the deposited data

Results flagged for a closer look

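Single libraries lay far from the rest of their group for 28 of 175 gene and group combinations, by the gap to the nearest library relative to the group's range. Chance alone flags about 1 in 20 groups, and the genes share libraries, so these are not independent. Weaned1 accounted for 10 of the 28 and FL1 for 9. In EW, Weaned1 was highest for Plin2 (166 CPM, next value 97.4), Acadl (356, next 220), Acadvl (318, next 220), Hadh (946, next 689), Acaa2 (671, next 325), Etfb (150, next 81), Acaa1b (178, next 49.3), Eci2 (229, next 86.2), Acot1 (38.5, next 8.32) and Acot2 (22.1, next 9.41 CPM).

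In EW+2'-FL, FL1 was highest for Ppara (158 CPM, next 43.3), Slc27a2 (718, next 199), Acaa1b (80.1, next 36.3), Eci2 (264, next 92), Acot2 (15.2, next 4.93), Pdk4 (1970, next 151) and Angptl4 (451, next 102 CPM). It was lowest for Acadvl (136, next 184) and Decr1 (46, next 108 CPM). FL2 was lowest for Etfdh (58.3, next 106) and Pex11a, a peroxisome division factor (25, next 45.9 CPM).

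In EW+HMOs, HMOs2 was highest for Slc27a2 (239 CPM, next 173), Hadh (797, next 699) and Acaa1b (44.6, next 31.5), and HMOs5 was lowest for Acadvl (191, next 204) and Hadhb (164, next 182 CPM). LNnT3 was lowest in EW+LNnT for Acads (59.4, next 70 CPM). Control2 was highest in the controls for Pex11a (49.6, next 44.3 CPM).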

How the results depend on the processing

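The number of calls moved more than the values. The 6 genes called between EW and controls had a negative change in all 37 other settings, and no called gene changed sign in any of them. Single uncalled changes did change sign, and the cause of these differences was not tested. Counts below are of all genes, and of the 35 where stated. Cyp4a10 and Cyp4a31 rest on few counts.

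DESeq2 called 660 genes between EW and controls (211 in edgeR) and 11 of the 35 (6), 56 for EW+HMOs and 49 for EW+2'-FL against EW (0 in edgeR), 408 for EW+LNnT against EW (38), 1322, 1389 and 3543 for EW+HMOs, EW+2'-FL and EW+LNnT against controls (410, 563 and 2348), and 72 between the single oligosaccharides (0). The fit of the 2 groups alone called 1638 genes and 13 of the 35 for EW, 1 for EW+LNnT against EW, 4966 and 25 of the 35 for EW+HMOs, and 123 and 8 of the 35 for EW+2'-FL against controls (11 and 16 in the fit of all libraries). With no filter on low counts, 130 genes and 3 of the 35 were called for EW, 15 for EW+LNnT against EW and 1508 for EW+LNnT against controls. Limma on log2(FPKM + 0.1) called 2 genes for EW+2'-FL and 13 for EW+LNnT against EW. With log2(FPKM + 1) it called 2 and 20, 645 for EW+HMOs against controls and 1 between the single oligosaccharides.

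The Y-linked share as a covariate left 61 genes and 1 of the 35 for EW (median log2 change of the 35 genes -0.45, against -0.41), 6 for EW+LNnT against EW, and 217 and 266 for EW+HMOs and EW+2'-FL against controls. In the libraries without Y-linked transcripts, where EW keeps only Weaned3 and EW+2'-FL only FL2, each assumed to vary like the others, 4 genes and 0 of the 35 were called for EW. There were 1, 89 and 4 genes for EW+HMOs, EW+2'-FL and EW+LNnT against EW, with 2 of the 35 for EW+2'-FL. Against controls 17 genes and 0 of the 35 were called for EW+HMOs, 6 of the 35 for EW+2'-FL and 3566 genes for EW+LNnT, and 2537 genes and 9 of the 35 between the single oligosaccharides (FL2, a library at the extreme of many genes, against LNnT1 to LNnT3).

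Without FL1, LNnT1 and LNnT2 the counts were 1135 genes and 14 of the 35 for EW, 2 for EW+2'-FL and 299 for EW+LNnT against EW, 1772 and 17 of the 35 for EW+HMOs and 1474 for EW+LNnT against controls. Without Weaned1 as well they were 2275 and 20 of the 35, 3, 212, 2615 and 21 of the 35, and 1115 genes for EW+2'-FL against controls. Without the 6 libraries with pancreatic transcripts 10 of the 35 were called for EW, 3 genes for EW+LNnT against EW, 317 for EW+2'-FL against controls, and 300 genes and 6 of the 35 for EW+LNnT against controls. These last 2 settings and the one without Y-linked transcripts were chosen after seeing the data.

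Leaving out 1 library at a time gave 58 to 530 genes and 0 to 14 of the 35 for EW, 0 to 1, 0 to 2 and 5 to 219 genes against EW for EW+HMOs, EW+2'-FL and EW+LNnT, and 0 to 4 between the single oligosaccharides. Against controls it gave 169 to 1141 genes and 8 to 15 of the 35 for EW+HMOs, 191 to 1452 and 9 to 18 for EW+2'-FL, and 700 to 3310 and 9 to 17 for EW+LNnT. The lowest counts against controls for the 3 oligosaccharide groups came without Control3.

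Sign changes were in uncalled values. Ppara in EW+HMOs against EW was 0.02 without Weaned2 (range -0.14 to 0.02 with 1 library left out). Ppara in EW+2'-FL against EW was -0.11 without FL1, LNnT1 and LNnT2, -0.12 without Weaned1 as well, -2.37 in the libraries without Y-linked transcripts (FL2 against Weaned3 alone) and -0.10 without FL1 (range -0.10 to 1.02). Cpt1a in EW+2'-FL against EW was 0.07 without the pancreatic libraries, 0.00 without Weaned1, 0.09 without FL2, 0.05 without FL4 and 0.01 without FL5 (range -0.43 to 0.09). Cpt1a in EW+LNnT against EW was -0.39 without FL1, LNnT1 and LNnT2, -0.32 without Weaned1 as well, -0.32 without the pancreatic libraries and -0.03 without LNnT1 (range -0.03 to 0.46).

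A replicate block, in which libraries of the same number are paired, called 20 genes for EW+LNnT against EW and 208 genes and 4 of the 35 between EW and controls. Of 50 same-numbered pairs 11 had deviations correlated above 0.1 (range -0.266 to 0.498, median 0.025). The highest was that of FL1 with LNnT1, both libraries that stood apart. Pairs with different numbers were not compared, so this check cannot tell whether the numbers pair the samples.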
